A study of Mus musculus with 3 samples.

Results

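5S rRNA is the smallest RNA of the large ribosomal subunit, and its genes lie in many near-identical copies. Reads of 5S rRNA were examined at the 5 annotated copies n-R5s2, n-R5s115, n-R5s185, n-R5s109 and n-R5s71, of 197 5S genes and pseudogenes in the GENCODE mouse annotation. The copies were chosen by their measured values, as 5S loci with many reads in these libraries, so their levels are a description. They were found in the alignments by sequence, and 36 other 5S loci were placed by the same comparison, giving 41 loci in all. The libraries are small RNA-seq of MIN6, a line of insulin-secreting cells from a mouse insulinoma, grown in medium with 25 mM glucose. There were 3 biological replicates of this 1 condition, made with the TruSeq small RNA kit from total RNA of high integrity. No second condition was available for comparison, so no test was made, no p-value is available, and values are given per library with their mean and SD.

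The 5S genes are transcribed by RNA polymerase III, which is recruited through a control region inside the gene bound by the transcription factor TFIIIA. The RNA folds with its 5′ and 3′ ends paired in a common helix, from which a pair of further arms extend. Small RNA-seq of total RNA captures pieces of such abundant structured RNAs beside the miRNAs.

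The expected counts that the authors deposited summed to 9269795, 10816006 and 10218743 mapped reads in replicates 1, 2 and 3. An expected count is the number of reads behind an alignment, divided equally among the loci that a read matched equally well. Levels are given as RPM, reads per 1e6 of these mapped reads. The hairpin of the beta cell marker Mir375 was found at 345184, 368904 and 383021 RPM, and the hairpins of Mir217, Mir142 and Mir223, markers of acinar and blood cells, were not placed by the sequence comparison and have no level here. In bulk libraries, fewer cells with an RNA and less of it per cell cannot be told apart.

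The copies differ from the main 5S gene, Rn5s, at a few bases each, which decide where a read can be placed. Of the 197 annotated genes, 32 have the sequence of Rn5s, all on chromosome 8.

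Positions are those of the deposited alignments, on build mm9 according to the submitters' processing notes. The copies n-R5s109 (chr8:126077960-126078078) and n-R5s115 (chr8:126088186-126088304) lie on the minus strand, 10226 nt apart in the tandem array of 5S genes. The annotation has 50 5S genes from the first to the last placed locus of this array, at a median distance of 1697 nt, and places both copies in introns of Gm20388 on the other strand. The other copies lie outside the array on plus strands, n-R5s2 at chrX:5684009-5684127, n-R5s71 at chr11:74133294-74133412 and n-R5s185 at chr4:53873524-53873642. Among these, n-R5s185 overlaps an exon annotated for Tmem38b on the same strand, and n-R5s2 and n-R5s71 overlap no other annotated gene. At each of the 5 loci, the named copy was the only 5S gene of that chromosome and strand without a base excluded by a mismatch.

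Together the 5 copies had 3779.8, 3538 and 4923 RPM in replicates 1, 2 and 3, with a mean of 4080.5 ± 739.8 RPM (SD, n = 3). Replicate 3 was 1.30-fold above replicate 1 and 1.39-fold above replicate 2. All 41 placed 5S loci had 10398, 10382 and 14337 RPM, with a mean of 11706 ± 2279 RPM (SD, n = 3), and replicate 3 was again highest, 1.38-fold above both others. The 5 copies thus held 36.4%, 34.1% and 34.3% of the reads at placed 5S loci, and the 36 other loci held 6618, 6844 and 9414 RPM.

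The copy with the highest mean was n-R5s2, with 1011, 957 and 1291 RPM in replicates 1, 2 and 3 (1087 ± 179, mean ± SD, n = 3). This rank rests on replicate 2, as n-R5s115 was higher in replicate 1 and nearly equal in replicate 3. The array copy n-R5s115 had 1089, 535 and 1290.4 RPM (971 ± 391) and n-R5s185 had 495, 652 and 1155 RPM (767 ± 345). Both were variable, with a 2.41-fold and a 2.33-fold range over the libraries, although different libraries were lowest. The array copy n-R5s109 had 696, 866 and 457 RPM (673 ± 206) and was lowest in replicate 3, where the other 4 copies were highest. The lowest mean was that of n-R5s71, with 489, 529 and 729.8 RPM (582 ± 129). Neighbors in this order differed by less than their SDs, from n-R5s2 down to n-R5s71. Of the 36 other loci, 6 had a higher mean than n-R5s71, all in the array, with n-R5s129 highest at 909.7 ± 156 RPM and n-R5s127 lowest of the 6 at 675 ± 127 RPM. The next locus below n-R5s71 was n-R5s102 at 308 ± 13.6 RPM, and the median of the other loci was 80.5 RPM.

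**Figure D1:**
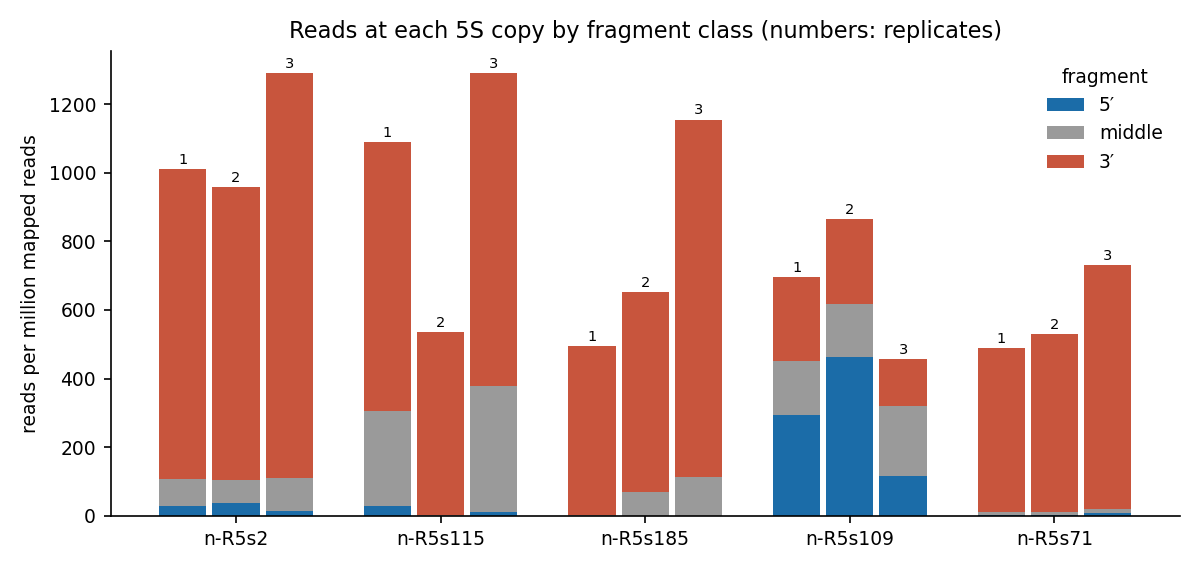
RPM at each of the 5 copies, 1 bar per library in the order of the replicates, divided into 5′, middle and 3′ fragments. 5′ fragments are found mainly at n-R5s109, where replicate 2 has 462 RPM of them and replicate 3 fewer than replicate 1.

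Reads were divided by position into 5′, 3′ and middle fragments. The 5′ fragments start within the first 5 nt of the RNA or before them, and 3′ fragments end within the last 5 nt or past them. Middle fragments do neither. At the 5 copies, 3′ fragments made up most of the reads, with 76.9%, 77.3% and 80.9% in replicates 1, 2 and 3 (mean 78.4% ± 2.22, SD, n = 3). The 95% Wilson intervals of these shares were 76.4% to 77.3%, 76.9% to 77.7% and 80.6% to 81.3%, and like all intervals and floors here they include only the error of counting. PCR copies were not identified, as there were no molecular barcodes. The share of 5′ fragments was 9.34%, 14.1% and 3.02% (mean 8.83% ± 5.57), with Wilson intervals of 9.04% to 9.65%, 13.8% to 14.5% and 2.87% to 3.17%. Middle fragments made up 13.8%, 8.58% and 16.1% (mean 12.8% ± 3.83), with intervals of 13.4% to 14.1%, 8.30% to 8.86% and 15.7% to 16.4%. The 3′ share exceeded the other shares in every library, whereas the 5′ share ranged widely over the libraries, and which of the 5′ and middle shares was higher differed between them.

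Summed over all 41 placed loci, the same classes were nearly constant. The 5′ share was 8.29%, 7.81% and 8.19% (mean 8.10% ± 0.256), the middle share was 29.1%, 29.6% and 29.8% (mean 29.5% ± 0.329), and the 3′ share was 62.6%, 62.6% and 62.0% (mean 62.4% ± 0.307). In RPM, 5′ fragments at all loci came to 862, 810.5 and 1175, middle fragments to 3030.4, 3076 and 4268, and 3′ fragments to 6506, 6496 and 8894. Each class was thus highest in replicate 3, by at most 1.45-fold over the lowest library, against a 3.37-fold range of the 5′ fragments at the 5 copies. The 5 copies held 40.97%, 61.7% and 12.6% of the 5′ fragments of all loci, 17.2%, 9.87% and 18.5% of the middle fragments, and a steadier 44.7%, 42.1% and 44.8% of the 3′ fragments.

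**Figure D2:**
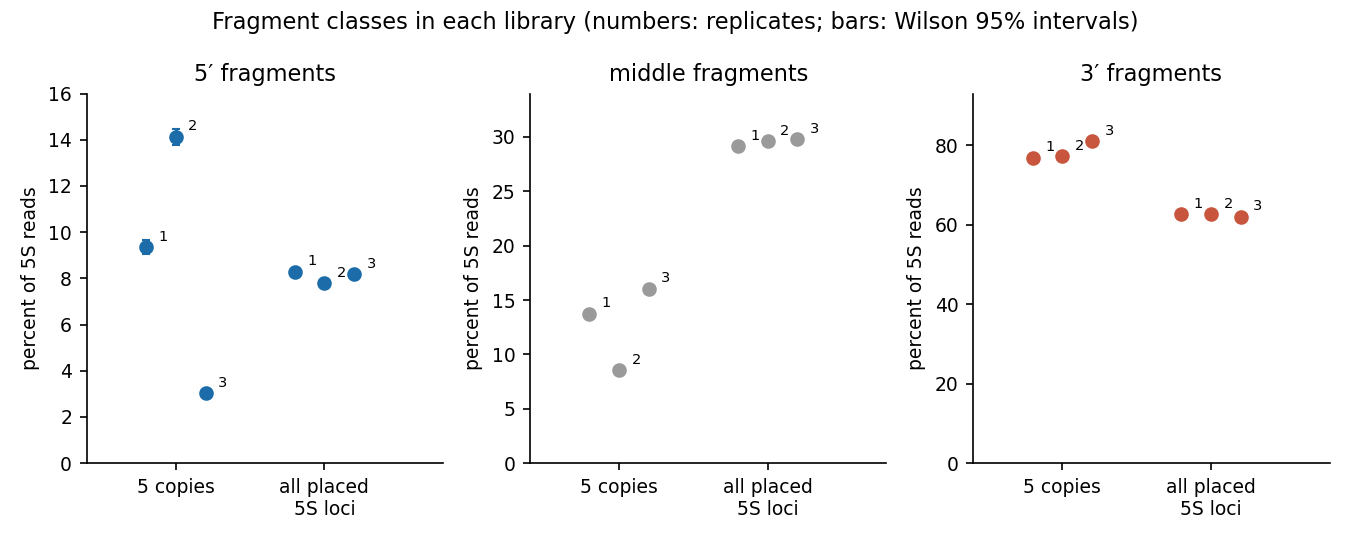
Percent of 5S reads in each fragment class for each library, with 95% Wilson intervals, at the 5 copies (left of each panel) and at all placed 5S loci (right). The 5′ share spreads from 3.02% to 14.1% at the 5 copies and from 7.81% to 8.29% at all loci.

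This spread went with how the reads had been divided. The sets of loci that received the same read differed between libraries. The fragment from position 1 to 34 shows this most plainly. Its most frequent sequence had 834 reads in replicate 1, shared by n-R5s109 with 1 other locus at 417 reads each. In replicate 2 its 965 reads were all at n-R5s109, and in replicate 3 its 952 reads were shared by 7 loci, with 136 reads at n-R5s109. The value at n-R5s109 thus differed between replicates 2 and 3 by a large factor while the sum over loci was nearly equal. Likewise, the most frequent sequence from 1 to 33 had 314, 673 and 121 reads at n-R5s109 and 628, 673 and 844 reads over all loci. Differences between libraries at single copies therefore cannot be told apart from this division, and sums over all placed loci are given beside them.

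**Figure D3:**
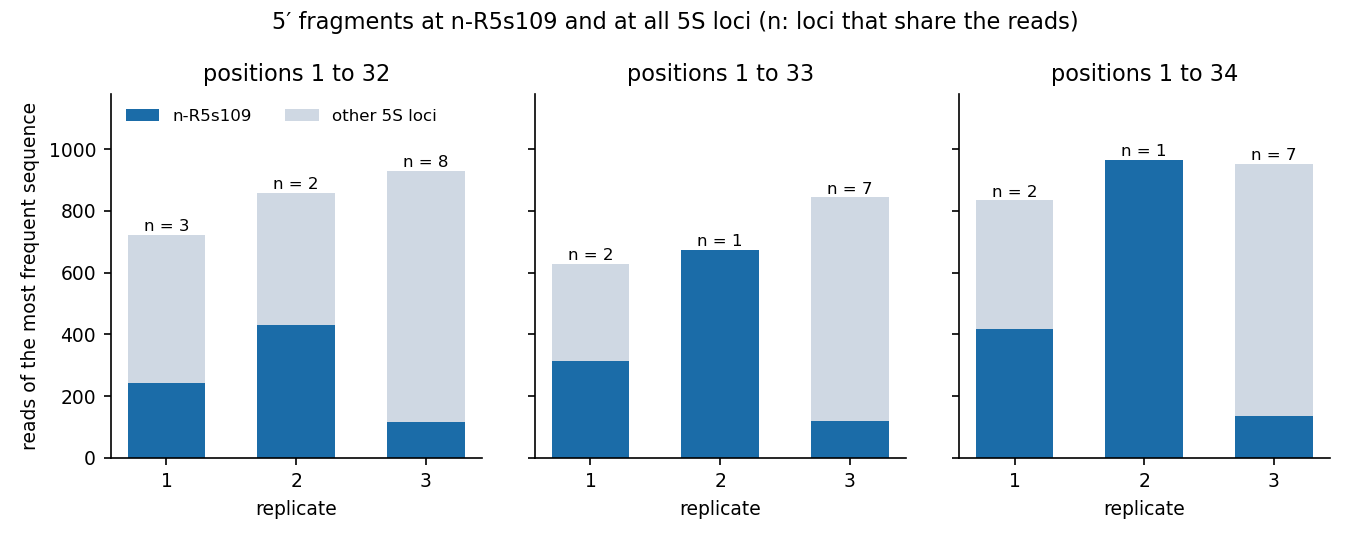
Reads of the most frequent sequence of 3 fragments that start at position 1, for each library, at n-R5s109 (dark) and at the other 5S loci (light), with the number of loci that share them. For the fragment from 1 to 34, n-R5s109 has 417, 965 and 136 reads, and the sums over loci are 834, 965 and 952.

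Among 3′ fragments, the copies that shared a read were the same in every library for some fragments and not for others. The fragment from position 87 to 120, of 34 nt, was the most abundant start and end pair at the 5 copies, with 262, 244 and 329 RPM (279 ± 44.7). Its most frequent sequence had 1998, 2220.0 and 2822 reads, shared in every library by the same number of 3 loci, n-R5s2, n-R5s115 and n-R5s185, at 666, 740.0 and 941 reads each. The most frequent sequence from 98 to 121, of 24 nt, had 3508, 3835 and 5036 reads and was shared by 9 loci in every library, with n-R5s115 and n-R5s71 among them. For the most frequent sequence from 98 to 120 the copies changed, with 243, 0 and 395 reads at n-R5s115 and 0, 302 and 395 reads at n-R5s185 in replicates 1, 2 and 3. Over the loci together, each 5S read was divided among a mean of 7.71, 7.53 and 7.97 placed loci, and 5.45%, 11.1% and 2.56% of the reads at the 5 copies were at a single placed locus. The sum over loci came to a whole number, within 0.01, for 88.1%, 80.6% and 85.4% of the reads. Whether the other reads had a part at a locus that was not placed was not tested.

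The bases of the reads themselves were derived from the sequence of the copy and the recorded mismatches. Match strings of digits only, which made up 79.1%, 79.2% and 81.2% of the reads at the 5 copies, were read as full matches, an assumption that the files do not state and on which these values rest. Of the reads at the 5 copies, 86.5%, 86.2% and 86.8% carried the bases of Rn5s within the annotated RNA (mean 86.5% ± 0.292, SD, n = 3), compared with 86.6%, 86.4% and 86.6% at all placed loci. Bases past the annotated RNA, reached by 69.7%, 67.5% and 70.6% of the reads at the 5 copies, were not compared. Few reads covered a position at which a copy differs from Rn5s. Over the 3 libraries together this held for 1.47% of the reads at n-R5s2, 2.64% at n-R5s115, 0.0398% at n-R5s185, 7.57% at n-R5s109 and 4.28% at n-R5s71.

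Positions in the RNA are counted from 1 at its 5′ end. Over all placed loci, each class had 1 most abundant fragment. The 5′ fragment runs from position 1 to 39 and had 192, 158 and 245 RPM in replicates 1, 2 and 3 (198 ± 43.7). It made up 20.9% ± 1.34 (SD, n = 3) of the 5′ fragments. The middle fragment runs from 14 to 49 and had 109.4, 110.4 and 108.6 RPM (109.5 ± 0.877), so it was the same in each library to within 2 RPM although 5S reads as a whole were highest in replicate 3. The 3′ fragment runs from 98 to 121, past the last annotated base, and had 460.5, 438 and 598 RPM (499 ± 87.0). It was the most abundant pair over all placed loci, at 4.27% ± 0.136 of the reads at placed 5S loci.

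Starts and ends were concentrated at a few positions. At the 5 copies the 5 highest starts were 87 with 320.0 ± 53.5 RPM, 1 with 304 ± 181, 98 with 278 ± 82.3, 83 with 233 ± 43.9 and 99 with 228 ± 73.8 (mean ± SD, n = 3). Over all placed loci they were 98 with 974 ± 177 RPM, 1 with 812 ± 159, 99 with 760.5 ± 158, 103 with 674 ± 123 and 97 with 657 ± 117. Position 1 took 85.7% ± 1.18 of the 5′ fragments of all loci, whose starts are limited by definition to the first 5 nt or before them. The most frequent starts of 3′ fragments, which are not limited in this way, had 13.3% ± 0.215 of them at 98, 10.4% ± 0.228 at 99 and 9.24% ± 0.0844 at 103. Starts at 83 and 87 were a larger part at the 5 copies, with 7.23% ± 0.275 and 10.0% ± 0.425 of the 3′ fragments, than over all loci, with 3.97% ± 0.213 and 4.46% ± 0.188. This difference cannot be told apart from how shared reads were divided among loci.

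The 5 highest ends at the 5 copies were 120 with 1897 ± 410.1 RPM, 121 with 908 ± 159, the last annotated base with 332 ± 111, 34 with 83.4 ± 36.8 and 33 with 73.8 ± 17.2. Over all placed loci they were 120 with 3397 ± 680.3 RPM, 121 with 2743 ± 489, the last annotated base with 919.5 ± 222, 49 with 274 ± 44.8 and 33 with 269 ± 40.3. The 5 most abundant pairs at the 5 copies were 87 to 120, then 83 to 120 with 159 ± 32.6 RPM, 91 to 120 with 139.6 ± 24.7, 98 to 121 with 125 ± 22.2 and 98 to 120 with 123 ± 48.3. The pairs 87 to 120 and 83 to 120 took a near-constant 6.85% ± 0.138 and 3.90% ± 0.152 of the reads at the 5 copies, so their RPM followed the 5S level of each library.

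**Figure D4:**
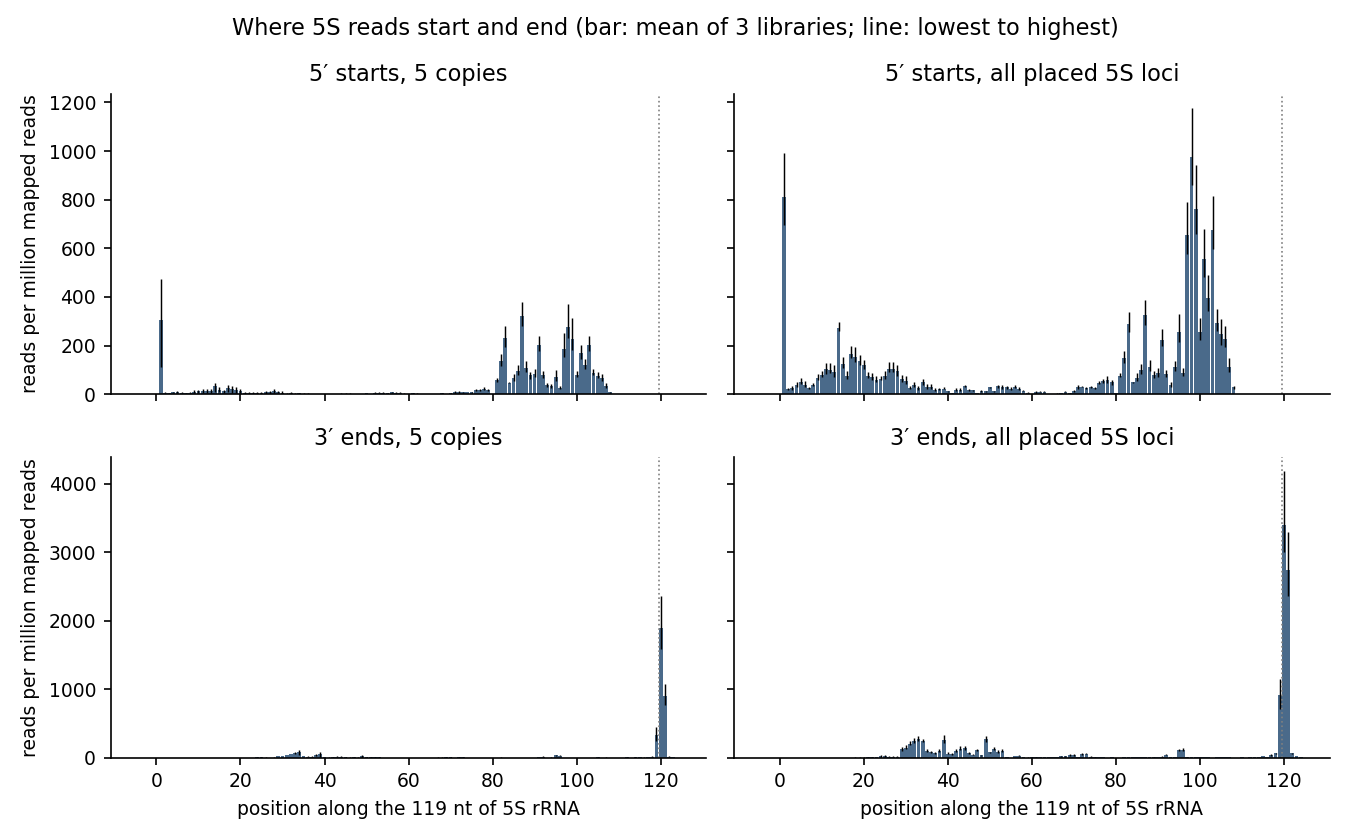
Mean RPM at each 5′ start (top) and 3′ end (bottom) along 5S rRNA, with lines from the lowest to the highest library, at the 5 copies (left) and at all placed loci (right). The dotted line marks the end of the annotated RNA, and most reads end just past it, at 120 and 121.

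Most 3′ fragments ended past the annotated RNA. At the 5 copies 59.1% ± 0.923 of them ended at 120, 28.4% ± 1.28 at 121 and 10.2% ± 1.74 at the last annotated base (mean ± SD, n = 3), and 0.901% ± 0.129 ended past 121. Over all loci the shares were 46.5% ± 0.469 at 120, 37.6% ± 1.68 at 121 and 12.6% ± 1.41 at the last annotated base. The genomic base at 120, as far as the mismatches leave only 1 possibility, was T at each of the 5 copies. At 121, T was the only possibility at n-R5s109 and n-R5s71, remained possible at n-R5s115, and was excluded at n-R5s2 and n-R5s185. The share of 3′ fragments ending at 121 was 48.1% ± 6.55 at n-R5s115, 58.5% ± 31.5 at n-R5s109 and 47.6% ± 3.96 at n-R5s71, against 15.1% ± 0.570 at n-R5s2 and 4.61% ± 1.06 at n-R5s185. For n-R5s109 it was 43.2%, 37.6% and 94.7% in replicates 1, 2 and 3, so its mean rests on replicate 3. As reads go to the loci that they match best, a read with T at 121 is not placed as a match at n-R5s2 or n-R5s185. How far this placement accounts for the shares was not tested. The shares cannot be told apart from it and are not read as a difference between the RNAs of the copies.

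The copy n-R5s2 had 10.5% ± 0.340 of its reads in the exact alignment step, against 0.0464% ± 0.00746 at n-R5s115 and 0.584% ± 0.0699 at n-R5s185. This step kept only reads with at most 20 matching loci, so a low share does not mean that reads matched less exactly. Of the exact reads of n-R5s2, 98.9%, 98.7% and 98.9% ended at 121, where its genomic base is not T. These reads carry a base other than T at 121, and whether it was transcribed or added was not tested. A read within the annotated RNA with the bases of Rn5s can match the 32 genes of that sequence, above the limit of 20 loci. The share of exact reads ending at 121 therefore cannot be told apart from this limit.

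The last base of the read was recorded as a mismatch for 3.39%, 3.86% and 2.22% of the reads at the 5 copies (mean 3.15% ± 0.845), and for 2.31%, 2.52% and 1.71% at all placed loci (mean 2.18% ± 0.421). The Wilson intervals at the 5 copies were 3.21% to 3.59%, 3.67% to 4.05% and 2.09% to 2.35%. Of the mismatching last bases at the 5 copies, 41.9%, 35.5% and 56.3% were T, 36.1%, 43.6% and 16.6% were C, and 17.6%, 17.3% and 20.4% were A. At all placed loci the order differed, with A at 34.9%, 34.1% and 36.2%, T at 26.99%, 22.6% and 31.1%, and C at 30.7%, 36.3% and 23.7%. In replicates 1, 2 and 3, 27.9%, 35.9% and 1.74% of those at the 5 copies, and 15.1%, 18.99% and 1.27% of those at all placed loci, were the base of Rn5s at that position, that is, mismatches to the copy and not to the main 5S gene. The 5′ fragments at the 5 copies had a mismatching last base in 12.2%, 11.4% and 2.72% of reads, and the 3′ fragments in 2.76%, 2.80% and 2.47%. Over all placed loci these shares were 5.93%, 7.48% and 1.55% for 5′ fragments and 2.46%, 2.57% and 2.12% for 3′ fragments, so the 5′ fragments at the 5 copies had the higher share in each library. By copy, the mean share was highest at n-R5s109, with 7.16%, 7.54% and 1.13%, although not in replicate 3, and lowest at n-R5s115, with 0.968%, 0.633% and 0.783%.

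The classes differed in length. Over all placed loci, 5′ fragments had a mean length of 33.1 ± 0.280 nt, middle fragments 23.8 ± 0.267 nt and 3′ fragments 24.2 ± 0.164 nt (SD, n = 3). The most frequent lengths of 5′ fragments were, among the 14 to 41 nt aligned, 39 nt with 21.1% ± 1.32, 34 nt with 12.7% ± 1.78 and 32 nt with 11.1% ± 0.947. Those of 3′ fragments were 23 nt with 10.9% ± 0.142 and 24 nt with 10.7% ± 0.105, with lesser peaks at 19 nt with 6.73% ± 0.0668, 34 nt with 4.12% ± 0.168 and 38 nt with 2.94% ± 0.189. Middle fragments were most often short, with 6.79% ± 0.315 at 16 nt, and had a lesser peak at 36 nt with 4.69% ± 0.632. Reads of 16 to 27 nt made up 70.9% ± 0.567 of the 3′ fragments and 10.5% ± 2.64 of the 5′ fragments. At the 5 copies the 3′ fragments were longer, with a mean of 27.4 ± 0.175 nt, and 9.23% ± 0.433 of them had 34 nt. In each library, the most frequent sequence from 87 to 120, of 34 nt, had 100% of its reads at the 5 copies. That from 98 to 121, of 24 nt, had 22.2%. The difference in length cannot be told apart from how shared reads were divided among loci.

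**Figure D5:**
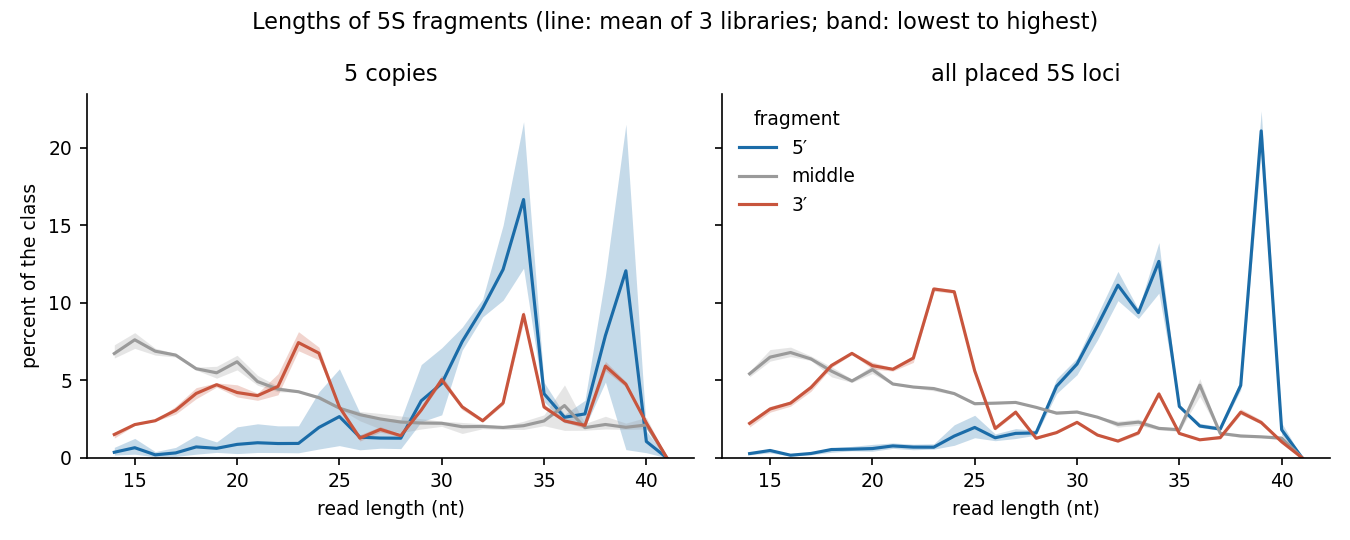
Percent of the reads of each fragment class by read length, as the mean of 3 libraries with a band from lowest to highest, at the 5 copies (left) and at all placed 5S loci (right). Over all loci 5′ fragments peak at 39 nt and 3′ fragments at 23 and 24 nt, and the band of 5′ fragments is wide only at the 5 copies.

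By fragment class, the copies fell apart more than by level. At n-R5s71, 97.7% ± 0.437 of the reads were 3′ fragments, and at n-R5s2 90.0% ± 1.33 were. At n-R5s185 the 3′ share was 99.6%, 89.3% and 90.3% in replicates 1, 2 and 3, and no 5′ fragment was recorded among its 4589, 7050.4 and 11804 reads. With a floor of 3 reads for a count of 0, the share of reads placed there was below 0.0654%, 0.0426% and 0.0254%. This floor covers the error of counting only and not how reads were divided among loci. At n-R5s115 the middle share was 25.4%, 0.237% and 28.3%, so replicate 2 had nearly no middle fragments at this copy. The array copy n-R5s109 was the only one of the 5 copies with a large 5′ share, at 42.2%, 53.4% and 25.2%. These class differences between copies cannot be told apart from how shared reads were divided among loci.

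Other RNAs placed by the same comparison showed other class shares. Of the Y RNAs, also polymerase III transcripts, Rny1 had 61.5% of its reads as 5′ fragments and 30.2% as 3′ fragments, and Rny3 had 27.1% and 62.8% (means of 3 libraries). In Rmrp, the RNA of the nuclease MRP, 92.0% were 5′ fragments. In Vaultrc5, a vault RNA, 85.7% were 3′ fragments and 1.597% were 5′ fragments. The signal recognition particle RNA Rn7s1 had 1.69% and 44.8%, its near-identical copy Rn7s2 had 1.67% and 44.7%, and their relative Rn7s6 had no read of either class among 994, 1204 and 1127 reads. Of the RNase P RNA Rpph1, 1.31% were 5′ fragments and 25.1% were 3′ fragments. Shares of Rn7sk are not given because it had at most 76.8 reads in a library. The RNAs Bc1, Rnu6 and n-R5-8s1 were not placed and have no values here. With 62.4% of 3′ fragments and 8.10% of 5′ fragments over all loci, 5S rRNA thus lay nearest to Rny3 in its 3′ share.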

How the data were processed

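According to the paper, the authors trimmed the adaptor with cutadapt 1.0, aligned reads exactly with Bowtie 0.12.7, and aligned the remaining reads with mismatches, by SHRiMP 2.2.2, to windows around the exact alignments. The build is mm9, per the submitters' processing notes. The deposited values are expected counts per alignment, with reads divided among equally good loci, not normalized and not pooled. Exact alignments end 1 base early, which was corrected. A gene of GENCODE release M21 was placed on its chromosome and strand where no base was excluded by a recorded mismatch, with at least 20 bits of sequence information and 15 reads. Placement was tested on simulated data with each gene alone on a random chromosome and undivided reads. That test does not cover near-identical genes that share reads. Where several array genes matched, the locus was named by the distance between annotation and data common to the array. Levels are RPM of all mapped reads, and shares have Wilson 95% intervals. Python 3.11.15, pandas 2.3.3, numpy 2.4.6 and scipy 1.17.1 were used, with matplotlib 3.10.9 for plots. Named starts, ends and pairs are the 5 highest by mean RPM, and context RNAs those placed from a list of polymerase III transcripts and rRNAs. The members and lists were chosen with earlier results of these data known. Alternatives were other copies, read lengths, end definitions, denominators, alignments, thresholds and leaving out each library.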

Additional observations from a re-analysis of the deposited data

How the results depend on the processing

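The level and the class shares at the 5 copies depend on which loci are summed. With n-R5s2, n-R5s115, n-R5s185, n-R5s109 or n-R5s71 alone, the level was 1087, 971, 767, 673 and 582 RPM, the 5′ share 2.57%, 1.16%, 0%, 40.2% and 0.653%, the 3′ share 90.0%, 80.9%, 93.1%, 31.3% and 97.7%, and the middle share 7.39%, 18.0%, 6.94%, 28.4% and 1.65%. The share with a mismatching last base was 0.795% at n-R5s115, 4.23% at n-R5s185, 5.28% at n-R5s109 and 1.90% at n-R5s71. Over all placed 5S loci the level was 11706 RPM, the 3′ share 62.4%, the middle share 29.5% and the mismatching share 2.18%, and the 5′ share moved by less than its SD. With reads of 16 to 27 nt only, the level was 1872 RPM and the 5′, 3′ and mismatching shares 1.55%, 82.6% and 1.70%. With reads at a single placed 5S locus the level was 242 RPM and the 5′, 3′ and middle shares 37.7%, 61.5% and 0.768%. Per 1e6 reads without a mismatch the level was 5467 RPM. With the RNA cut into 3 equal parts the 5′, 3′ and middle shares were 15.8%, 81.7% and 2.56%. The other 31 of 71 comparisons, which include leaving out each replicate, were the same by the rule of 1 SD or 1.5-fold. Leaving out 1 of 3 replicates cannot move a mean by 1 SD, so for these the rule decides nothing. The 5′ share was 6.18% without replicate 2 and 11.7% without replicate 3. The number of placed loci was 41 at 20 bits, 46 at 15 bits and 35 at 30 bits, with all 5 copies placed at each.

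No paired analysis was possible because the libraries belong to 1 condition. The cause of these shifts was not tested. Reads of other 5S loci, of copies not placed and of pseudogenes that share a sequence are not separated, and a read without an exact read nearby in its library was not aligned. The libraries come from 1 cell line at 1 glucose level, PCR copies are not marked, and ligation and size selection shape which ends are seen.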

Other observations

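Middle fragments had their own preferred positions. Over all placed 5S loci, the most frequent starts of middle fragments were 14 with 8.05% ± 0.965 of the class, 17 with 4.87% ± 0.270 and 18 with 4.38% ± 0.134 (mean ± SD, n = 3). Their most frequent ends were 49 with 7.98% ± 0.489 and 33 with 5.08% ± 0.334. At the 5 copies the end 95 had 4.82%, 14.2% and 6.13% of the class in replicates 1, 2 and 3, so its first rank by mean rests on replicate 2. In replicate 1 the ends 33, 49 and 96 were above it with 6.28%, 6.18% and 4.93%.

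In replicates 1, 2 and 3, at least 10 reads of 5′ fragments were found at 19, 12 and 18 of the 41 placed loci, of middle fragments at 33, 34 and 37, and of 3′ fragments at 19, 19 and 20.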
